A study of Mus musculus with 6 samples.

Results

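Forkhead (FOX) transcription factors were examined in mouse embryonic fibroblasts (MEFs) with and without Mcm8, a gene of a helicase that acts in DNA repair. The members were the protein-coding rows of the gene table whose symbol is Fox followed by a subfamily letter from a to s and a number, with antisense and overlapping transcripts left out. The rule took 45 of the 55565 listed genes and used no measured value. Of these, 16 had a mean above 1 FPKM (fragment counts scaled to exon length and library size, a level that can be set side by side between genes) in at least 1 genotype and are called expressed here. The other 29 were at or below 1 FPKM in both genotypes, and 12 of them had no count in any library. The table's own annotation gives 44 of the 45 members the fork head family label. Foxr1 lacks that label but is listed with the forkhead domain, and 3 other loci carry the label without belonging to the members.

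The 3 wildtype libraries (WT1, WT2 and WT3) and the 3 Mcm8 knockout libraries (KO1, KO2 and KO3) were made from total RNA of MEFs of embryonic day 13.5. The fibroblasts came from the trunks of embryos whose parents each carried 1 intact and 1 disrupted Mcm8 allele, and both genotypes were immortalized with a lentivirus that carries a gene of SV40 and then selected with puromycin, so that the wildtype cells are no untouched primary cells. In the knockout, exon 7 of Mcm8 was removed with CRISPR-Cas9. The methods call the 3 samples of a genotype biological repeats without stating whether each was an embryo or a culture of its own. The p-values therefore rest on the spread between these libraries, which may be technical. In the main edgeR fit that spread came from a trend over all genes, not from each gene alone.

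Mcm8 had 176, 233 and 238 counts in the WT libraries and 89, 74 and 66 in the KO libraries, a log2 fold change of -1.75 (standard error 0.16, adjusted p = 4.45e-26, edgeR), and the genotypes did not overlap. Totals ran from 12722979 to 19019695 counts in WT and from 15954793 to 21022755 in KO libraries, and the 45 members held from 0.103% to 0.119% of them. WT1 stood apart from the other WT libraries: its counts differed from those of WT2 and WT3 with a chi-square of 15.9 and 14.8 per gene, against 4.72 between WT2 and WT3 and at most 3.19 between KO libraries. Member counts are therefore also given without WT1. All 14 fibroblast markers checked were measured, with Col1a1 at 8634 ± 749 CPM (counts scaled to the library's normalized size, with SD over 3 libraries) in WT and 9940 ± 234 in KO libraries.

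Forkhead factors share a DNA-binding domain folded as a winged helix, whose recognition helix lies in the major groove of a site with the core GTAAACA. FOXA factors open chromatin in endoderm, FOXC, FOXD, FOXF and FOXL factors pattern mesenchyme of the trunk, FOXM1 drives genes of mitosis, FOXO factors are held in the cytoplasm by AKT and act when insulin signaling is low, FOXK factors repress autophagy genes, and FOXP factors pair through a coiled coil and repress transcription. Fibroblasts of the embryonic trunk are mesenchyme, in which FOXC, FOXD and FOXF factors often mark where in the body the cells came from.

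The part of the coding sequence that encodes the recognition helix shows how closely the members are related at the site that reads DNA, and also how far their reads resemble each other. It was found in 43 of the 44 members with a coding sequence in GENCODE M21 (GRCm38), as a window of 36 bases that starts at the codon before the conserved tryptophan. Capitals mark bases that differ from the commonest base at that position among the members. The lines below give 6 members that were higher in KO MEFs, the member that was lower, and 3 expressed members that did not pass the test.
Foxc1: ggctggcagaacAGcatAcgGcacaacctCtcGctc
Foxc2: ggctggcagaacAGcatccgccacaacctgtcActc
Foxl1: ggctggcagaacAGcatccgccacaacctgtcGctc
Foxd1: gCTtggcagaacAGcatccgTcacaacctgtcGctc
Foxf2: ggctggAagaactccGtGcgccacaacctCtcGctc
Foxp4: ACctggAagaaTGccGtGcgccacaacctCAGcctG
Foxn3: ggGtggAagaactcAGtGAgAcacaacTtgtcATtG
Foxk2: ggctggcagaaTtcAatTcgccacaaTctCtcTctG
Foxm1: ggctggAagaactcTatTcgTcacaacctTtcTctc
Foxo3: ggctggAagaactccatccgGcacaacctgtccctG
The window of Foxc1 lies at chr13:31807568-31807603 (plus strand), of Foxc2 at chr8:121116954-121116989 (plus strand), of Foxl1 at chr8:121128235-121128270 (plus strand), of Foxd1 at chr13:98355136-98355171 (plus strand), of Foxf2 at chr13:31626506-31626541 (plus strand) and of Foxn3 at chr12:99388400-99388435 (minus strand), each inside an exon. In Foxp4, Foxk2, Foxm1 and Foxo3 an intron splits the window.

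Foxc2 and Foxl1 each differed from the commonest base at 3 positions, Foxc1, Foxd1 and Foxm1 at 6, Foxf2 at 5, Foxk2 at 7, and Foxp4 and Foxn3 at 11. Foxf1 and Foxf2 had 35 of the 36 bases in common, and Foxc1 and Foxc2 32. Over whole coding sequences, 111 of the 946 pairs of members shared an identical run of at least 20 bases, the longest of 68 bases between Foxd3 and Foxd4. Foxc1 and Foxc2 shared a run of 53 bases, Foxd1 and Foxd2 of 47, and Foxf1 and Foxf2 of 41. The paper's paired reads are longer than the longest of these runs. How many reads were split between paralogs by the counting was not tested.

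Of the 33 members with counts, 4 were called higher in KO MEFs, which means more than a 2-fold rise with an adjusted p below 0.05, and 0 were called lower by edgeR. DESeq2 called 4 higher and limma-voom 3, and both called 0 lower. At an unadjusted p below 0.05 edgeR gave 10 members higher and 2 lower, beside 9.47% and 8.47% of all genes tested. The called members were Foxc1, Foxd1, Foxf2 and Foxl1, factors of embryonic mesenchyme. Among all 26898 genes tested, 1.75% were called higher and 0.665% lower by the same rule. With the adjusted p alone, 7 members were higher, among them the 4 called, Foxc2 and Foxp4, and Foxn3 was lower, against 4.97% and 4.03% of all genes tested. The median log2 fold change of the 33 members was 0.14, and that of all genes tested 0.01. In 11 members every KO value lay above every WT value, and in 2 (Foxn2 and Foxn3) every KO value lay below, where 11.6% and 10.1% of all genes tested did so. Without WT1, 5 members were called higher, now with Foxd2, and 10 had an adjusted p below 0.05, 8 of them higher and 2 lower. In bulk RNA, fewer cells that express a gene cannot be told apart from less of its RNA in each cell.

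**Figure D1:**
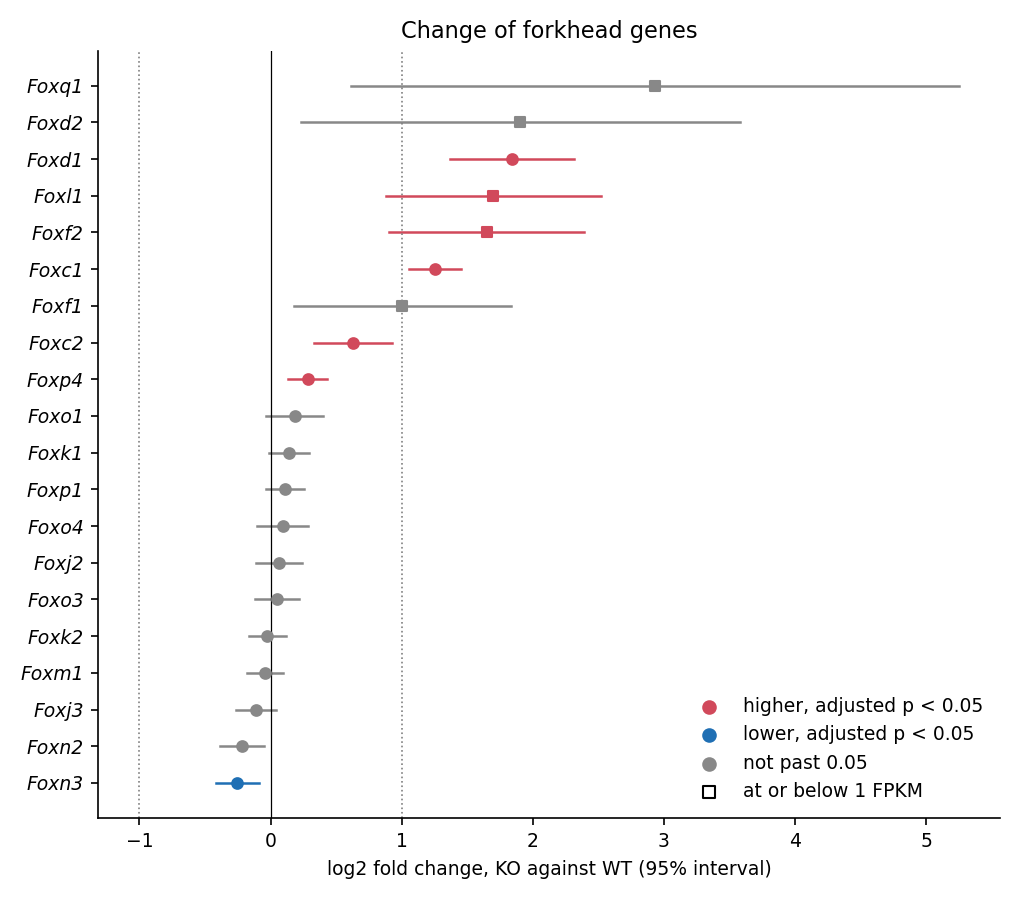
Change of 20 forkhead genes between KO and WT MEFs. The x axis gives the log2 fold change with its 95% interval (edgeR, n = 3 libraries each), circles are expressed members and squares members at or below 1 FPKM, dotted lines mark a 2-fold change, and red and blue mark an adjusted p below 0.05, higher or lower. The squares are the members at or below 1 FPKM that were higher in KO without overlap, so they were picked by their values. Among the genes plotted, the FOXC, FOXD, FOXF, FOXL and FOXQ genes lie above 0. The plotted FOXJ, FOXK, FOXM, FOXN, FOXO and FOXP genes lie within 0.3 of 0. Of the members not plotted, Foxd4 was below 0, and Foxj1, Foxn1 and Foxo6 were more than 0.3 above 0, none past the adjusted p.

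Among the 16 expressed members, 5 had an adjusted p below 0.05 and were higher in KO, among them Foxc1, Foxd1, Foxc2 and Foxp4, and 1 was lower (Foxn3). In the 12401 genes above 1 FPKM in either genotype, 8.42% were higher and 7.87% lower by that rule. Separation without overlap was seen in 6 expressed members that were higher and 2 that were lower, beside 16.1% and 17.4% of the genes above 1 FPKM. Foxd1 counts among these through its KO level alone, so its rise is part of what admitted it, and of the 15 members above 1 FPKM in WT 4 were higher by the adjusted p and 5 without overlap. The expressed members split by level into a few abundant and many moderate genes. Foxk2 and Foxm1 led in both genotypes and together made up 42.4% of the FPKM of all members in WT and 37.8% in KO libraries. Of neighbours in the order of WT levels, Foxk2 and Foxm1 overlapped between libraries, and so did Foxp1, Foxo4, Foxn2, Foxj2 and Foxj3 from each to the next. In KO libraries Foxc1 moved from place 13 of 16 to place 9.

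**Figure D2:**
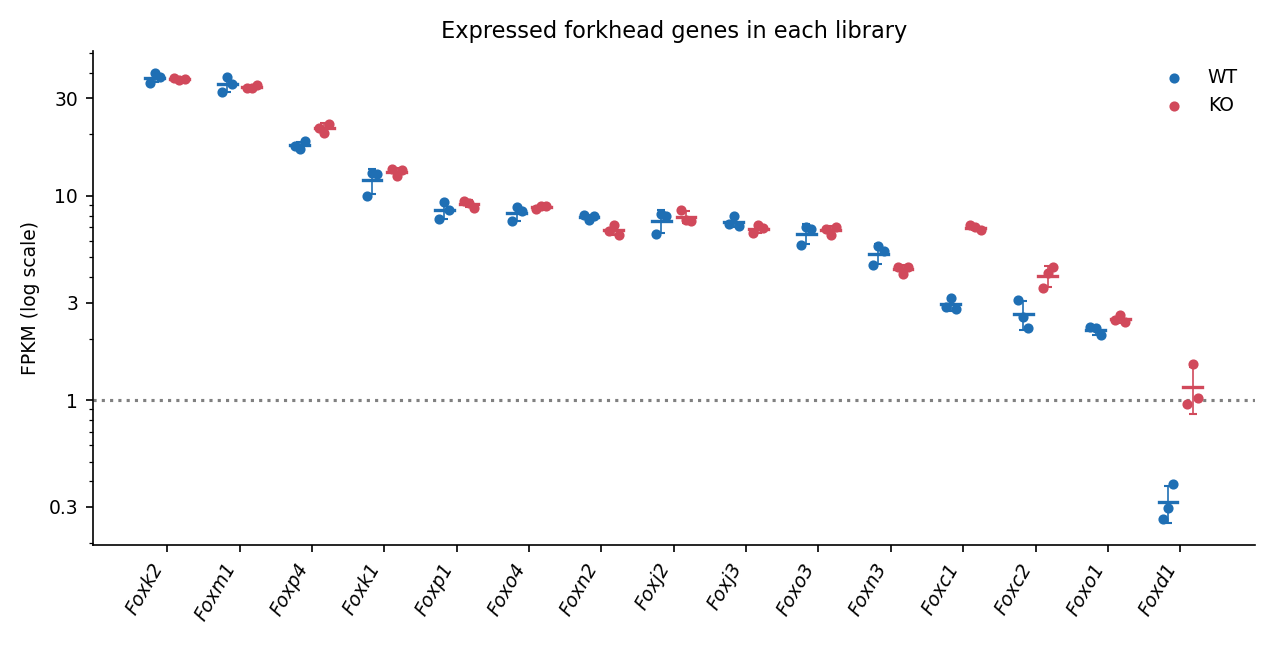
FPKM (log axis) of 15 expressed forkhead genes in each of 3 WT (blue) and 3 KO (red) libraries, ordered by the WT mean. Horizontal bars are means, whiskers are SD and the dotted line is the threshold of 1 FPKM. Foxc1, Foxc2 and Foxd1 have KO values above all WT values, and Foxk2 and Foxm1 sit between 32.3 and 39.7 FPKM in every library.

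FOXC factors build somites, vessels and the mesenchyme around the eye and kidney, and both were expressed. Foxc1 had 213, 260 and 307 counts in WT and 893, 683 and 637 in KO libraries, or 2.86, 3.17 and 2.79 FPKM against 7.17, 7.004 and 6.775 FPKM. The spread within each genotype was small beside the gap between them. Its log2 fold change was 1.25 (standard error 0.10, 95% interval 1.05 to 1.45, adjusted p = 2.28e-32, edgeR), a 2.38-fold rise. Foxc2 rose less, by 0.63 (standard error 0.15, adjusted p = 8.16e-04, edgeR), from 3.105, 2.56 and 2.26 FPKM to 3.55, 4.18 and 4.47 FPKM. WT1 held the highest WT value of Foxc2 and KO1 the lowest KO value, and without WT1 its log2 fold change was 0.75. In WT MEFs the ranges of the FOXC genes overlapped, at 2.94 ± 0.201 FPKM for Foxc1 and 2.64 ± 0.428 for Foxc2 (mean ± SD, n = 3), while in KO MEFs Foxc1 stood at 6.98 ± 0.197 and Foxc2 at 4.065 ± 0.473.

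FOXD1 is known from the stroma of the developing kidney. Foxd1 had 17, 21 and 37 counts in WT and 103, 127 and 83 in KO libraries, with a log2 fold change of 1.84 (standard error 0.24, 95% interval 1.37 to 2.31, adjusted p = 1.86e-12, edgeR). The lowest KO library had more than the highest WT library by count and by FPKM (0.954 against 0.388). It was expressed by the threshold in KO alone (1.16 ± 0.2999 FPKM against 0.3155 ± 0.0650 in WT), and KO2 decided that: without KO2, 15 members were expressed and Foxd1 was not among them. When the null value was a 2-fold change, Foxd1 was the member that still passed. Foxd2, a relative, had 4, 0 and 2 counts in WT and 10, 7 and 11 in KO libraries. These do not overlap, yet the adjusted p was 0.181, and without WT1 it was 0.0465 (edgeR). Foxd2os, a long noncoding RNA that starts 0.383 kb from Foxd2 on the other strand, had 14, 23 and 31 counts in WT and 56, 41 and 68 in KO libraries (log2 fold change 1.06, adjusted p = 5.74e-03, edgeR), and its adjusted p was below 0.05 in 9 of the 15 other settings, not with DESeq2, limma-voom or either limma fit on FPKM, nor without KO3 (adjusted p = 0.191). Foxd4 had 2 counts in all, both in WT libraries, and Foxd3, a factor of neural crest, had none.

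FOXF and FOXL1 are factors of the mesenchyme around the gut, where they respond to Hedgehog signals from the epithelium. Foxf2 had 8, 4 and 20 counts in WT and 26, 47 and 41 in KO libraries, a log2 fold change of 1.65 (standard error 0.38, 95% interval 0.90 to 2.39, adjusted p = 3.69e-04, edgeR). Foxf1 had 9, 10 and 14 counts against 33, 20 and 26, a value of 1.01 (standard error 0.42) that did not pass (adjusted p = 0.137, edgeR). Foxl1 had 8, 1 and 17 counts against 35, 28 and 35, a log2 fold change of 1.70 (standard error 0.42, adjusted p = 1.09e-03, edgeR). No KO library reached down to a WT library in any of these genes. The size depends on a few counts in WT: without WT3, the WT library with most counts of each, Foxf2 stood at 2.25 and Foxl1 at 2.41, and without WT2 at 1.3 and 1.21. The call of Foxf2 was lost with limma-voom (adjusted p = 0.054). Those of Foxf2 and Foxl1 were lost with limma on log2(FPKM + 1) (adjusted p = 0.177 and 0.0986) and on log2(FPKM + 0.1) (adjusted p = 0.192 and 0.203). A gene with a KO mean below 1 FPKM cannot rise 2-fold on log2(FPKM + 1), so there the call could only be lost. All 3 stayed at or below 1 FPKM in the mean of each genotype. Their KO means were 0.929 ± 0.362 FPKM for Foxf2, just under the threshold, 0.677 ± 0.110 for Foxl1 and 0.602 ± 0.0928 for Foxf1.

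Foxq1 had 0, 1 and 1 counts in WT and 4, 12 and 4 in KO libraries, a ratio of 8.58 per count sequenced with a counting interval from 2.09 to 75.8, and did not pass (adjusted p = 0.114, edgeR). Foxl2, the factor of ovarian granulosa cells, had 3 counts in WT, all in WT3, and 8 in KO, and Foxl3 had none.

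The FOXC, FOXD, FOXF, FOXL and FOXQ genes with counts, 10 in all, were grouped after their values had been seen, so their sum is a description. It was 7.13, 6.515 and 6.66 FPKM in WT and 13.75, 15.3 and 15.1 in KO libraries, and their share of the FPKM of all members went from 3.95% to 7.81%. The 12 expressed FOXJ, FOXK, FOXM, FOXN, FOXO and FOXP genes summed to 156 ± 9.93 FPKM in WT and 159 ± 2.16 in KO libraries, a ratio of 1.02. Of the 10 genes 9 had a positive log2 fold change, the exception being Foxd4 with its 2 counts, while 7 of the 12 had a positive value and 5 a negative one, from -0.25 to 0.28.

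FOXK factors bind a BAP1 complex and hold back autophagy genes, and both were among the most abundant members. Foxk2 had 35.8, 39.7 and 37.95 FPKM in WT and 37.7, 36.8 and 37.1 FPKM in KO libraries, a log2 fold change of -0.02 (95% interval -0.16 to 0.11). Foxk1 had 10.0, 12.9 and 12.8 FPKM against 13.5, 12.55 and 13.4 FPKM, a log2 fold change of 0.14 (95% interval -0.01 to 0.29, adjusted p = 0.324, edgeR). WT1 was the lowest library for both, and without it the value of Foxk1 was 0.03.

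Foxm1, which peaks in dividing cells, had 32.3, 38.0 and 35.3 FPKM in WT and 33.8, 33.6 and 34.9 FPKM in KO libraries. The ranges overlapped, and the log2 fold change was -0.04 (95% interval -0.18 to 0.09, adjusted p = 0.761, edgeR). The interval leaves room for a fold of 0.881 to 1.07.

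FOXP factors pair through a coiled coil and recruit corepressors. Foxp4 rose slightly, from 17.5, 17.0 and 18.5 FPKM in WT to 21.6, 20.3 and 22.6 FPKM in KO libraries, without overlap (log2 fold change 0.28, standard error 0.08, adjusted p = 3.87e-03, edgeR). The adjusted p was below 0.05 in 10 of the 15 other settings and rose above it without KO1 (adjusted p = 0.0587, edgeR) and without KO3 (adjusted p = 0.0871, edgeR). Foxp1 had 7.66, 9.32 and 8.496 FPKM against 9.45, 9.27 and 8.75 FPKM, with overlap and a log2 fold change of 0.11 (adjusted p = 0.475, edgeR). Foxp2 and Foxp3, the factor of regulatory T cells, had between 0 and 16 counts in each library and log2 fold changes of 0.14 and 0.07 (adjusted p = 0.921 and 0.974, edgeR).

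FOXO factors turn on genes of growth arrest, cell death and stress defence. Foxo4 had 7.49, 8.82 and 8.40 FPKM in WT and 8.63, 8.87 and 8.86 FPKM in KO libraries. Foxo3 had 5.72, 7.02 and 6.85 FPKM against 6.86, 6.41 and 7.03 FPKM. Foxo1 had 2.28, 2.24 and 2.08 FPKM against 2.47, 2.60 and 2.40 FPKM, the FOXO gene without overlap. None passed the edgeR test, with log2 fold changes of 0.09, 0.05 and 0.18 and 95% intervals from -0.10 to 0.28, from -0.12 to 0.22 and from -0.03 to 0.40. Foxo6 was not expressed, with 24 counts in WT and 38 in KO.

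Foxn3 and Foxn2 had the lowest log2 fold changes of the expressed members. Foxn3, a repressor tied to cell cycle checkpoints, had 4.56, 5.68 and 5.39 FPKM in WT and 4.495, 4.15 and 4.47 FPKM in KO libraries. WT1 lay barely above KO1, and the log2 fold change was -0.25 (standard error 0.08, adjusted p = 0.0319, edgeR). The adjusted p was below 0.05 in 3 of the 15 other settings tried, and DESeq2 gave an adjusted p of 0.0927. Foxn2 had 8.04, 7.64 and 7.93 FPKM against 6.69, 7.16 and 6.455 FPKM, also without overlap, with a log2 fold change of -0.22 that did not pass (adjusted p = 0.0927, edgeR, and 0.0461 without WT1). Foxj2 had 6.46, 8.16 and 7.99 FPKM against 8.54, 7.645 and 7.55 FPKM, and Foxj3 7.30, 7.94 and 7.09 FPKM against 6.56, 7.22 and 6.93 FPKM. Both overlapped, at log2 fold changes of 0.07 and -0.11.

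Of the 29 members at or below 1 FPKM, 12 had no count and 17 had counts. The 12 members without a count in any library were Foxa2, Foxb1, Foxb2, Foxd3, Foxe1, Foxi1, Foxi2, Foxi3, Foxl3, Foxn4, Foxr1 and Foxr2, among them all FOXB, FOXI and FOXR genes. A gene at 0 could still have up to 3 counts in a library by chance, which is a limit of counting alone. Of the 17 with counts, 5 separated the genotypes without overlap, and these were Foxf1, Foxf2, Foxl1, Foxd2 and Foxq1, each higher in KO, as were 11.6% of all genes tested. Foxa1, of endoderm, had 3, 7 and 1 counts in WT and 9, 15 and 5 in KO libraries, which overlap (log2 fold change 1.09, adjusted p = 0.473, edgeR). Foxs1 had 18 counts in WT and 15 in KO libraries, Foxj1, of ciliated cells, 6 and 11, Foxa3 5 and 4, Foxh1, a partner of SMAD proteins, 5 and 2, Foxn1, of thymus epithelium, 1 and 3, and Foxe3, of the lens, 1 and 0. None of these passed the edgeR test.

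**Figure D3:**
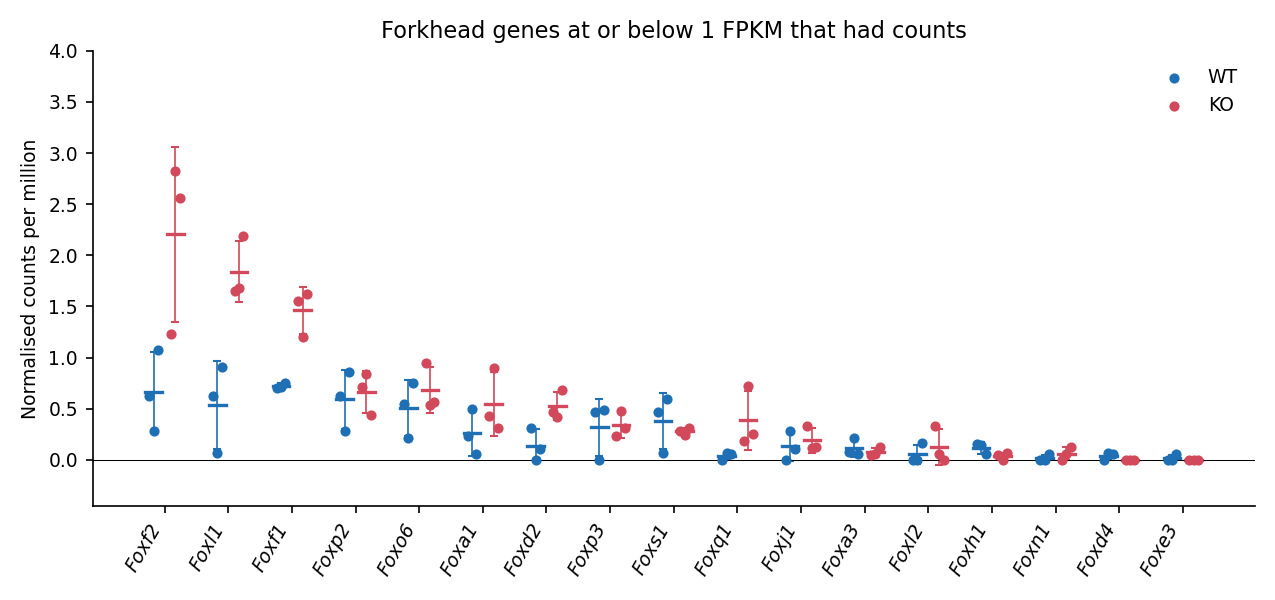
Normalised counts (CPM, y axis) of the 17 forkhead genes at or below 1 FPKM that had counts, in each of 3 WT (blue) and 3 KO (red) libraries. Bars are means and whiskers SD. Foxf2, Foxl1 and Foxf1 stand above 1 in every KO library, and the genes other than these stay below 1 in every library.

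Of the 7 members that were higher, 4 lie in clusters of forkhead genes. On chromosome 8 (GRCm39, the build of the table) Foxf1, Foxc2 and Foxl1 follow each other on the plus strand within 46.3 kb, with gaps of 28 kb and 9.04 kb, and on chromosome 13 Foxq1, Foxf2 and Foxc1 lie within 256 kb, with gaps of 64.8 kb and 175 kb. Each of these 6 genes was higher in every KO library than in any WT library, as were 11.6% of all genes tested. Fendrr, a long noncoding RNA that starts 1.27 kb from Foxf1 on the other strand, had 1, 0 and 0 counts in WT and 15, 3 and 4 in KO libraries (adjusted p = 0.0426, edgeR), a ratio of 18.9 per count sequenced with a counting interval from 3.05 to 779. Its call held in 4 of 13 other settings. It was lost without WT2, WT3, KO1 or KO3, with adjusted p up to 0.551 (edgeR). The call was also lost with the replicate number as a block, with no filter, in the test against a 2-fold change and with both limma fits on FPKM. The other protein-coding genes within 500 kb did not pass the test. On chromosome 8 0 of 11 had an adjusted p below 0.05 with edgeR or DESeq2, 1 had an unadjusted p below 0.05 (Irf8), and the median log2 fold change was 0.05. Mthfsd, an enzyme gene that lies between Foxf1 and Foxc2, had 429, 403 and 532 counts in WT and 750, 520 and 583 in KO libraries (log2 fold change 0.19, standard error 0.10). Irf8, a factor of blood cells, had 0, 0 and 2 counts in WT and 6, 11 and 6 in KO libraries (adjusted p = 0.0547, edgeR), and passed with limma-voom. On chromosome 13 Gmds was the protein-coding neighbour with counts, at -0.12 (95% interval -0.33 to 0.08).

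**Figure D4:**
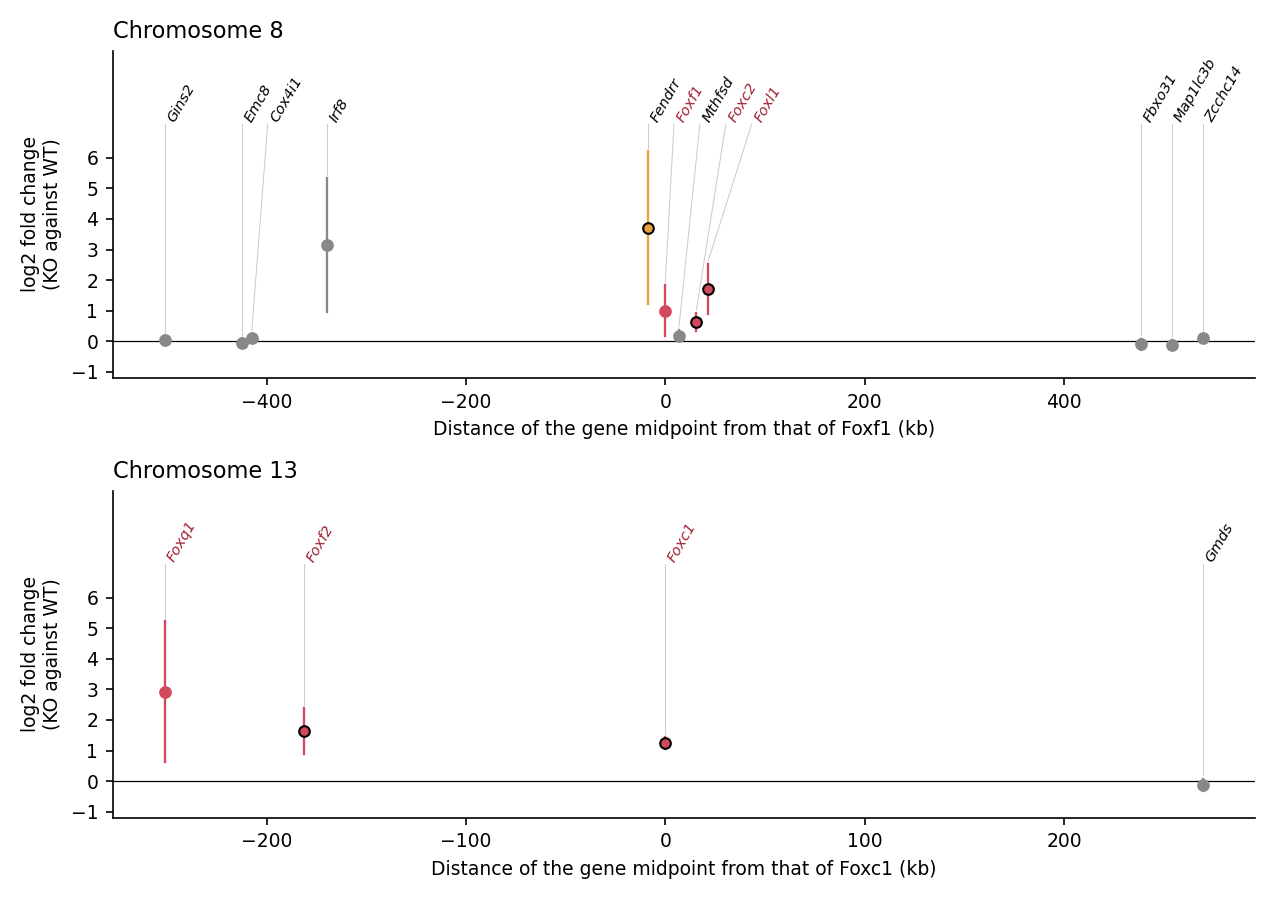
log2 fold change with 95% interval (edgeR) against distance in kb for protein-coding genes with at least 20 counts, and Fendrr, within 500 kb of the forkhead clusters of chromosome 8 (12 genes, centred on Foxf1) and chromosome 13 (4 genes, centred on Foxc1). Forkhead genes are red, Fendrr orange, other genes grey, and a black rim marks an adjusted p below 0.05. The forkhead genes and Fendrr lie above 0, and the other genes, Irf8 apart, lie near 0.

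Members without introns were counted apart, as a description with no test. By their deposited positions, 14 of the 45 members span no more than their summed exons, against 6.23% of all 21884 protein-coding genes. Of the 7 members that were higher at an adjusted p below 0.05, 5 were without an intron, among them Foxc1, Foxc2, Foxd1 and Foxl1. All 4 expressed members without an intron were higher, of which Foxd1 was admitted by its KO level and 3 were above 1 FPKM in WT, and of the 12 expressed members with introns 1 was higher (Foxp4) and 1 lower (Foxn3). By the same adjusted p, 40 of the 589 protein-coding genes without an intron that were tested were higher, and 1226 of all 16117 protein-coding genes tested. Among protein-coding genes above 1 FPKM these were 32 of 263 without an intron and 969 of 10545 in all. For the genes with introns, whether reads came from spliced or unspliced RNA cannot be read from such counts.

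Promoters were read from RefSeq (GRCm38.p6), which held 33 windows of 300 bases, from 250 before the start to 50 after it, for 28 of the 45 members. Foxf1, Foxc2 and Foxl1 had no entry. The 250 bases before the start are shown for the called members that had an entry and for Foxk2, the most abundant member, with CpG dinucleotides in capitals. All 4 lie on the plus strand.
Foxc1: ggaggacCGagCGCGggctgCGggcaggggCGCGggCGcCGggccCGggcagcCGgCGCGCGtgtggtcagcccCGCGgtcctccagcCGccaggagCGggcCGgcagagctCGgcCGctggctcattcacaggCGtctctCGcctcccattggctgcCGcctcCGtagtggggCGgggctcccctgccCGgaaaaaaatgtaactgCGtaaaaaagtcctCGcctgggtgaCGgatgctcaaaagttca
Foxf2: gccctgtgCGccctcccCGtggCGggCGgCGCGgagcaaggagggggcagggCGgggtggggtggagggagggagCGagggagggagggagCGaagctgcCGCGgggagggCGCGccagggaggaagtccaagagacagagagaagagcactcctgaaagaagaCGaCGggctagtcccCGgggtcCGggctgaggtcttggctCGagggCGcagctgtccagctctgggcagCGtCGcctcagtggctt
Foxd1: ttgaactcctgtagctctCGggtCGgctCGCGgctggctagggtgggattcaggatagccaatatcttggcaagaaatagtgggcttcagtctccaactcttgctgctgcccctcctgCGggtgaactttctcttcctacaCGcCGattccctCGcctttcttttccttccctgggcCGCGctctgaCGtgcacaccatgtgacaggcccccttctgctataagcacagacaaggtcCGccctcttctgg
Foxk2: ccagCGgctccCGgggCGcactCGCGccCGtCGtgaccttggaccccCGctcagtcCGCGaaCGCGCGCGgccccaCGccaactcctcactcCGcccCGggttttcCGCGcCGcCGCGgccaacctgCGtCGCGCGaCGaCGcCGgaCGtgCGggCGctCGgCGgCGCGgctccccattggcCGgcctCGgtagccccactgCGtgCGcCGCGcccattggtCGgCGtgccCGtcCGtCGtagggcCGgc
These are chr13:31806396-31806645 for Foxc1, chr13:31625566-31625815 for Foxf2, chr13:98353995-98354244 for Foxd1 and chr11:121259737-121259986 for Foxk2.

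The stretch of Foxk2 held 48 CpG, that of Foxc1 29, of Foxf2 21 and of Foxd1 12. Over windows of 300 bases the median was 32.5 CpG in expressed members, 13 in members at or below 1 FPKM and 7 in all 32851 promoters. The forkhead motif (GTAAACA or, on the other strand, TGTTTAC) occurred in 1 of the 33 member windows, that of Foxa1, or 3.03%, and in 3.65% of all promoters. The motif of GLI factors (GACCACCCA or TGGGTGGTC), the effectors of Hedgehog signaling, occurred in none of the 33, and in 83 promoters in all (0.253%). The motifs do not overlap each other in letters, and absence of these letters from a window says nothing of more distant sites.

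Genes that act with the forkhead factors, or are known to lie under them, are given by list. Their counts at an adjusted p below 0.05 stand beside 4.97% higher and 4.03% lower of all genes tested, and 8.42% and 7.87% of genes above 1 FPKM. Of the 15 Hedgehog pathway genes tested, 4 had an adjusted p below 0.05, each higher in KO, and 0 were lower with edgeR, DESeq2 or limma-voom, also at an unadjusted p below 0.05. DESeq2 and limma-voom each gave 3 higher, and limma on log2(FPKM + 1) or log2(FPKM + 0.1) gave 0. The 4 were Disp1, which releases the ligand (28.8, 36.99 and 39.2 CPM in WT and 48.15, 49.7 and 48.4 CPM in KO libraries, log2 fold change 0.47, adjusted p = 5.57e-06, edgeR), the coreceptor Cdon (from 114 ± 18.7 to 142 ± 3.79 CPM, 0.32, and 0.19 without WT1), and the effectors Gli2 (from 35.8 ± 5.57 to 46.8 ± 3.52 CPM, 0.38) and Gli1. Gli1 was the gene past 2-fold, at 0.705, 1.57 and 0.698 CPM in WT and 2.41, 1.98 and 1.81 CPM in KO libraries (log2 fold change 1.08, adjusted p = 0.0302, edgeR), and its call held in 4 of the 15 other settings. It was lost with DESeq2, limma-voom, both filter alternatives and both limma fits on FPKM, and without WT1, WT3, KO1 or KO2 (adjusted p up to 0.228, edgeR). Shh had no count in any library, and Ihh and Dhh had at most 13 counts in a genotype. Ptch1, a receptor that is also a target, stood at 30.85 ± 5.82 CPM in WT and 36.8 ± 2.36 in KO libraries (log2 fold change 0.24, adjusted p = 0.0913, edgeR).

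Of 27 regulators of FOXO factors, Sgk1 and Sfn were higher and 3 were lower, Stk4 and Ywhab among them. Sgk1, a kinase that restrains FOXO factors as AKT does, rose from 59.25, 66.9 and 58.3 CPM to 110.2, 110.6 and 116.6 CPM (log2 fold change 0.87, adjusted p = 1.31e-26, edgeR). Sfn, which encodes a 14-3-3 protein of epithelia, rose from 27 counts in WT to 128 in KO libraries (log2 fold change 1.99, adjusted p = 6.98e-06, edgeR). Stk4 and Ywhab no longer passed the adjusted p when some libraries were left out, Ywhab without WT2 or any KO library (adjusted p up to 0.259, edgeR) and Stk4 without any library other than WT1 (adjusted p up to 0.266, edgeR). The median over the list was -0.04. Of 30 FOXO target genes tested, 6 were higher and 1 lower, with DESeq2 or limma-voom 5 and 1, and with either limma fit on FPKM 0 and 1. Bcl6 (0.59), Trib1 (0.55), Klf2 (0.43), the cell death gene Bcl2l11 (0.51) and the stress genes Sesn3 (0.63) and Txnip (0.32) were higher by less than 2-fold. Txnip, without KO1 or KO3, and Klf2, without WT3 or KO2, no longer passed, with adjusted p up to 0.163 and 0.174 (edgeR). Fbxo32, a ubiquitin ligase of muscle wasting, fell from 18.7, 17.25 and 14.9 CPM to 9.02, 7.995 and 6.93 CPM (log2 fold change -1.07, adjusted p = 2.05e-13, edgeR). The median over the targets was -0.01, and the cell cycle inhibitor Cdkn1a stood at 35.3 ± 2.34 and 38.3 ± 1.35 CPM (log2 fold change 0.11, adjusted p = 0.574, edgeR).

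Of 22 FOXM1 target genes, which serve mitosis, 1 had an adjusted p below 0.05 with edgeR and 2 with DESeq2 or limma-voom, each higher in KO. With edgeR this was Plk1, at 112.9, 109.2 and 118.5 CPM in WT and 138.2, 136.6 and 145.8 CPM in KO libraries (log2 fold change 0.30, adjusted p = 8.72e-04, edgeR). The second gene, Cdc20, was named after its values were seen and had a log2 fold change of 0.20 (adjusted p = 0.0581, edgeR). The 22 values ran from -0.18 to 0.30 with a median of -0.02. Of the 11 MuvB and B-Myb partners of FOXM1 and of the 8 FOXK partners 0 passed the adjusted p with edgeR, DESeq2 or limma-voom. At an unadjusted p below 0.05 edgeR gave 1 of the FOXM1 partners, lower, and 1 FOXK partner higher and 1 lower. Of 10 FOXP partners 2 were higher and 1 was lower with edgeR. DESeq2 and limma-voom each gave 2 higher and 0 lower. Limma gave 0 higher on log2(FPKM + 1) and 1 higher on log2(FPKM + 0.1), and 0 lower on either. Nfatc1 rose by 0.72 on the log2 scale, from 24.4 ± 4.64 to 40.4 ± 1.93 CPM, and Nfatc2 rose by 0.94. Of 13 genes tested that tie forkhead factors to TGF-beta signaling, Tgfb2 (log2 fold change 0.60), its receptor Tgfbr2 (0.31) and Lefty1 (1.47, 20 counts in WT and 65 in KO) were higher, and 0 were lower with edgeR, DESeq2 or limma-voom, also at an unadjusted p below 0.05. The call of Lefty1 held in 5 of the 15 other settings, and was lost with DESeq2 and limma-voom and without WT2, WT3, KO2 or KO3 (adjusted p up to 0.267, edgeR).

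**Figure D5:**
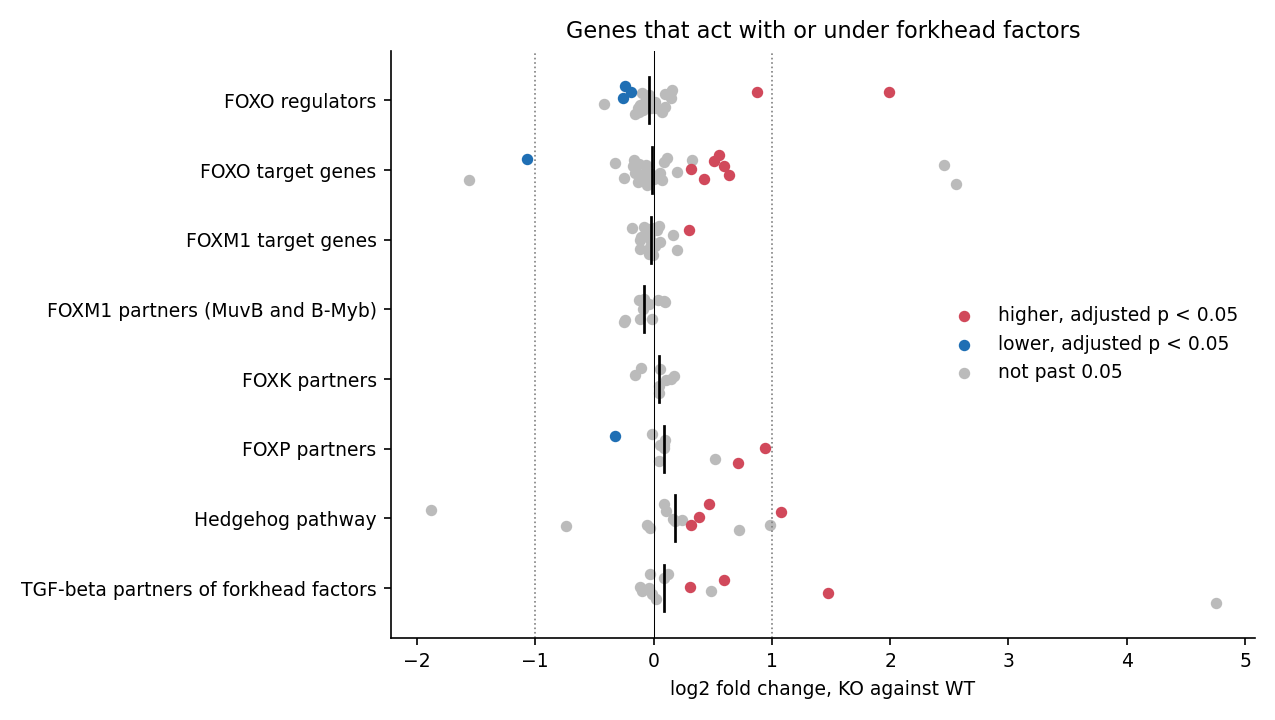
log2 fold change (x axis, KO against WT, edgeR) of every tested gene in 8 lists of regulators, partners and targets of forkhead factors. Points are genes (red higher, blue lower, grey not past an adjusted p of 0.05), black bars are list medians and dotted lines a 2-fold change. The medians of the FOXM1 lists lie between -0.08 and -0.02, and that of the Hedgehog list at 0.18.

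Markers of other cells and of body position differed with genotype beside these genes. The 10 position genes of trunk and hindlimb summed to 164 to 191 CPM over the WT libraries and 206 to 218 over the KO libraries, with Tbx4, Pitx1, Hoxa10, Hoxa11 and Hoxd10 higher and Hoxc10 lower. The 8 neural and neural crest markers summed to 168 to 183 CPM against 252 to 273 (Tubb3, Sox2 and Nes higher, 2, Sox10 among them, at or under 3 counts in every library). The 8 mesothelial markers summed to 11.9 to 15.03 CPM against 53.3 to 60.8, with Msln and Krt19 higher, Bnc1 lower and Upk3b, Lrrn4, Upk1b and Muc16 at or under 3 counts. The 9 epithelial markers summed to 0.713 to 1.49 CPM against 5.77 to 6.74, with Krt8 and Krt18 higher and Cldn3, Cldn4, Cldn6, Esrp1 and Grhl2 at or under 3 counts. Of the 8 gonad and kidney stroma markers Sox9 and Six2 were higher (sums 42.2 to 43.9 CPM against 57.5 to 62.2), with Nr5a1, Cyp11a1 and Pax2 at or under 3 counts. The 9 pericyte and smooth muscle markers summed to 1758 to 1899 CPM against 1328 to 1384, with Cspg4 and Acta2 lower and Kcnj8 and Abcc9 at or under 3 counts. The 14 fibroblast markers overlapped in sum, with Col1a1, Col3a1 and Fn1 higher and Thy1, Pdgfrb, Vim and S100a4 lower. The 8 endothelial markers overlapped in sum, with Erg higher and Cdh5, Tie1, Emcn and Sox17 at or under 3 counts, and so did the 8 blood cell markers, of which none passed and 6 were at or under 3 counts. Of the 8 skeletal muscle markers Pax3 was lower and 6, Myod1 among them, were at or under 3 counts. Of 5 sex-linked genes Ddx3y, Eif2s3y, Uty and Kdm5d, which lie on the Y chromosome, were higher and Xist was lower in KO. The part of cell makeup, body position or sex in the values of Foxc1, Foxd1, Foxf2 and Foxl1 was not tested.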

How the data were processed

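Total RNA of 3 WT and 3 KO MEF libraries was sequenced as paired ends. The authors aligned reads with HISAT2 2.0.5 and made the deposited counts per gene with featureCounts 1.5.0-p3, without normalization, and the authors derived the deposited FPKM from counts, exon length and library total. Gene positions in the table are those of Ensembl 106 (GRCm39), while the labels name GRCm38, the build of the sequences printed. The deposited columns of the authors' own comparison hold fold changes and p-values and were not used. Members, gene lists and tests were chosen with earlier results of these data known. The 26898 genes with a value above 0 in any library were tested with edgeR 4.0.16 (quasi-likelihood, TMM, Benjamini-Hochberg over all genes). The prior degrees of freedom were infinite, so p-values are too small for genes that vary more than the trend. With filterByExpr, a stricter filter on counts, the adjusted p was 3.02e-07 for Foxc1 and 2.15e-04 for Foxd1 (edgeR). Genes named are the members, and list genes past an adjusted p of 0.05, and some of these are counted but not reported here. DESeq2 1.42.0, limma 3.58.1 and other filters, scalings and left-out libraries were alternatives, and limma-voom was added after the data were seen. On simulated data of 26898 genes with 200 changed, edgeR recovered 200 with 3 false calls. Recovery at the fold changes and low counts of the members was not tested separately. Intervals on count ratios and limits of 3 counts cover counting error alone.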

Additional observations from a re-analysis of the deposited data

How the results depend on the processing

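Of the 4 called members, 1 (Foxd1) was left when tested against a 2-fold change. With limma 1 (Foxc1) was left on log2(FPKM + 1) and 2 (Foxc1 and Foxd1) on log2(FPKM + 0.1). The 8 members with an adjusted p below 0.05 became 1, 3 and 3 in these settings. Foxf2 and Foxl1, with KO means below 1 FPKM, could not reach a 2-fold rise on log2(FPKM + 1). DESeq2, RLE scaling, filterByExpr, no filter and the replicate block each called 4, and limma-voom 3, without Foxf2. Leaving out 1 library gave 4 to 5 called and 6 to 10 with an adjusted p below 0.05. Of the pathway and partner genes 4 were called, 2 with DESeq2 and 2 to 3 without 1 library. The values of Foxj2 and Foxo3 changed sign without WT1 (-0.0277 and -0.0364) and those of Foxk2 and Foxm1 without WT2 (0.0108 and 0.011), and without 1 library they ran from -0.0277 to 0.1227 for Foxj2, from -0.0364 to 0.0986 for Foxo3, from -0.0632 to 0.0108 for Foxk2 and from -0.1035 to 0.011 for Foxm1, none past the threshold. The cause was not tested. Above 0.1 FPKM 23 members were expressed, above 5 FPKM 13, above 1 CPM 19, and 15 to 17 without 1 library. Over all genes 472 were called higher and 179 lower, against 157 and 43 for the 2-fold test, 99 and 39 for log2(FPKM + 1), 251 and 88 for log2(FPKM + 0.1) and 357 and 130 for DESeq2.

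With the replicate number as a block 4 members were called, 8 had an adjusted p below 0.05, and 5 pathway and partner genes were called. Deviations of same-numbered libraries from their group means correlated at -0.025, -0.0157 and 0.0373. Differently numbered libraries were not compared, so these values cannot decide whether the numbers pair the libraries. Library totals limit the members at or below 1 FPKM, whose counts were at most 47 in a library.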

Other observations

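Foxred1 and Foxred2 carry similar symbols but encode oxidoreductases that are no forkhead factors. Foxred2, whose product acts in the endoplasmic reticulum, had 90, 126 and 132 counts in WT and 275, 224 and 209 in KO libraries (log2 fold change 0.78, adjusted p = 3.28e-06, edgeR). Foxred1 had 348, 316 and 474 counts against 447, 380 and 301 (log2 fold change -0.26, adjusted p = 0.1185, edgeR). Foxl2os, which overlaps Foxl2 by 12 bases, had 1 count in WT and 2 in KO libraries.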
